A study of Mus musculus with 12 samples.

Results

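The mouse genes named Zfp (zinc finger protein) with a symbol of Zfp and a digit, and with a clear array signal in testis, were followed over the cycle of the seminiferous epithelium. Members were chosen by their measured level, a mean log2 intensity of at least 9 over 12 arrays, read from the brightest probe set that carried 1 gene symbol. This rule took 119 of the 347 Zfp genes measured and of 19946 genes in all, and left 228 Zfp genes below the level. Whole testes of male mice of a mixed 129/C57BL6 background were hybridised to Affymetrix Mouse Gene 1.0 ST arrays, which read a transcript with many short probes. The labels call every testis synchronized and adult. Morphology placed the testes in 6 stage groups of 2 samples each, in cycle order XII-I, II-IV and IV-VI, then VII, followed by VIII-IX and IX-XI. Every animal had been given WIN 18,446, an inhibitor of retinoic acid synthesis, at 100 ug per gram on each of 7 days, from 2 to 8 days post partum. A dose of 200 ug of retinoic acid at 9 days post partum followed, and the testes were taken after 43 to 49 days of recovery. All groups thus share the treatment, and no untreated testis is among the samples. Whether both samples of a group are different animals is not in the labels, so the spread behind the p-values may be technical.

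Most Zfp genes encode proteins with tandem C2H2 zinc fingers, small zinc-held loops that read DNA bases. Many of them carry a KRAB domain as well, which binds the corepressor TRIM28 and through it the histone methyltransferase SETDB1 and heterochromatin proteins, and which is known for silencing retroelements. KRAB zinc finger genes lie in clusters of related copies that arose by duplication. The name is historical, and some Zfp proteins bind RNA, the spindle or the cytoskeleton instead. In the cycle, stage VII precedes sperm release and the entry of spermatogonial progeny into meiosis at VIII, and the meiotic divisions take place in stage XII.

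The arrays did not separate fully by their labels. Over all genes, 9 of 12 arrays correlated best with an array of another group, and the same number did so over the members' deviations from their means. Sample 2 of XII-I and sample 2 of II-IV had a correlation of 0.998, as had sample 1 of II-IV and sample 2 of IV-VI, whereas the 2 samples of a group correlated at 0.987 to 0.995. Both VIII-IX samples lay nearest to IX-XI sample 1 over all genes. Results are therefore also given with single arrays left out, with VIII-IX sample 2 and IX-XI sample 2 left out together, and with both II-IV samples left out, the last chosen after seeing the data. Markers of pachytene spermatocytes had a summed log2 intensity of 15.71 to 15.87 on every array, and 0 of these 7 passed the F test. The sum leans on the brightest probe sets, such as Ldha and Ldhc at a mean of 13.5 each. Piwil1 spanned 2.12-fold, lowest in XII-I and highest in IX-XI (adjusted p = 0.0592), and the others 1.16-fold or less. A steady sum thus does not show a steady share of these cells. Since whole testes were measured, fewer cells of a type and less RNA per cell cannot be told apart.

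The members' mean log2 levels ran from 9.00 to 12.12 with a median of 9.76, beside a median of 8.39 over all Zfp genes and 8.46 over all genes. These levels chose the members and are a description. The brightest probe sets were those of Zfp451 (12.12), Zfp706 (11.97), Zfp654 (11.70), Zfp110 (11.63) and Zfp37 (11.60), with 45 members at 10 or more and 14 at 11 or more. An intensity depends on the probes as well as the transcript, so these values do not rank the transcripts. Just inside the level of 9 lay Zfp781 (9.01), Zfp319 (9.01) and Zfp354b (9.00), and just outside it Zfp202 (8.99), Zfp317 (8.97) and Zfp711 (8.96). A group mean under 9 was found in 32 members, which had passed the rule through their other groups, and all 6 group means were at 9 or above in 87.

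Of the 119 members, 54 differed among the 6 groups by limma's moderated F test at a Benjamini-Hochberg adjusted p of 0.05 over all genes, which is 45.4% of them. The same test called 19.9% of all genes, 31.6% of the 8101 genes at a level of 9 or more, and 14% of the 228 dimmer Zfp genes. Among the 87 members with every group mean at 9 or above, 34 passed (39.1%). The adjusted p-values of the 54 lay between 0.0113 and 0.0499, all close to the threshold, and 85 members had an unadjusted p under 0.05. Without sample 2 of VIII-IX and of IX-XI, 0 members passed, against 19 of all genes, and the lowest adjusted p among members was then 0.0850. With VIII-IX and IX-XI joined into a single group 65 members passed, 51 of the 54 among them, and 60 passed without the II-IV samples. Leaving out 1 array at a time left 19 to 58 members past the threshold, and the count was 27 or lower without any one of IV-VI sample 1 or 2, VII sample 2, VIII-IX sample 1 or 2, or IX-XI sample 1 or 2.

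**Figure D1:**
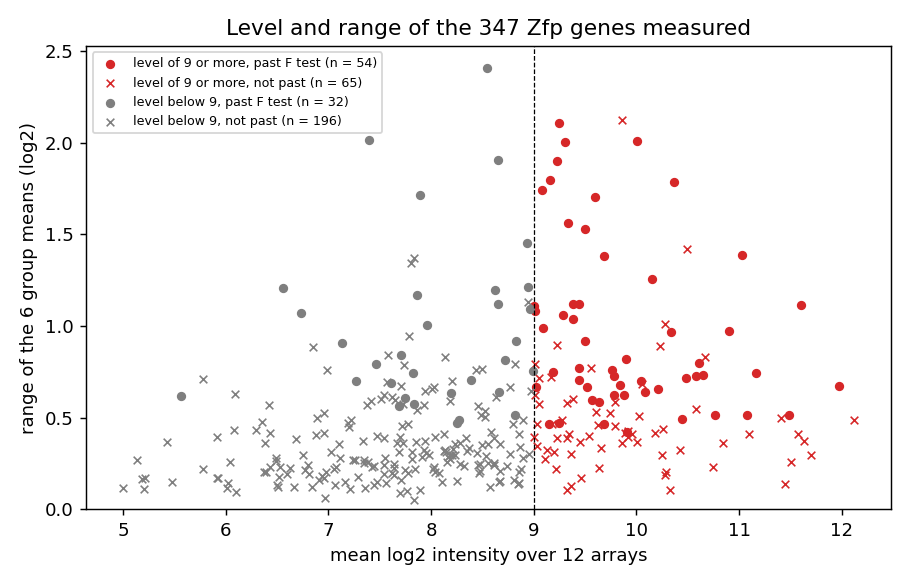
Each point is 1 of the 347 Zfp genes, with its mean log2 intensity over 12 arrays on the horizontal axis and the range of its 6 group means (log2) on the vertical axis. Red marks the 119 genes at 9 or more, right of the dashed line, and filled circles mark genes past the F test, 54 red and 32 grey.

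The range between the highest and the lowest group mean had a median of 0.58 on the log2 scale over the members, 0.34 over all genes and 0.47 over genes at 9 or more. For single genes below, a fold compares these 2 group means. The adjusted p and the number of fits beside a fold are those of the F test over all 6 groups. They do not test that pair of groups, which was picked after the means were seen. Contrasts and steps have their own adjusted p-values, given with log2 differences ± SE. Of the 54 members past the F test, 20 spanned at least 2-fold, which is 16.8% of the members, against 7.5% of all genes and 11.3% of those at 9 or more. A further 25 spanned 1.5-fold to 2-fold, and 9 less than 1.5-fold. Of these 20, 4 had all group means at 9 or above, and the others had dipped under 9 in at least 1 group, so their number is set in part by the rule. The highest mean fell in XII-I for 17 of the 54 (14.3% of the 119 members), in VIII-IX for 12 (10.1%), in IX-XI for 10 (8.4%), in IV-VI for 7 (5.88%), in II-IV for 6 (5.04%) and in VII for 2 (1.68%). Of all genes, 6.35% passed the test with their highest mean in XII-I, 4.06% in VIII-IX, 2.51% in IX-XI, 3.3% in IV-VI, 2.61% in II-IV and 1.09% in VII. These shares were not taken over genes at 9 or more. The test was passed by 45.4% of members, 31.6% of genes at 9 or more and 19.9% of all genes. Higher shares of members than of all genes therefore do not by themselves show a preference for a group.

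Markers of some germ cell types moved over the same groups, and their part in the members' changes was not tested. The F test called 19.9% of all genes. Of 7 spermatogonial markers 1 passed, Stra8, which was highest in IX-XI (2.53-fold, adjusted p = 0.0111, 12 of 12 fits). For the 6 markers of meiotic division the summed log2 intensity was 14.41 in both samples of XII-I and 12.98 to 13.40 in IX-XI, with 5 of 6 past the F test, 4 of them highest in XII-I. The 7 round spermatid markers summed to 13.85 to 14.25 in XII-I and to 15.09 to 15.24 in IV-VI, with 3 past the test, all highest in IV-VI. The 6 markers of preleptotene to zygotene spermatocytes summed to 12.88 to 12.93 in VIII-IX and to 12.45 to 12.49 in IV-VI. The F test was passed by 4, with 3 highest in VIII-IX. The other, Meiob, was highest in II-IV and lowest in VII (2.80-fold, adjusted p = 0.0219, 12 of 12 fits). The 6 elongating spermatid markers had their highest sums in VIII-IX, at 15.68 to 15.74, and their lowest in IV-VI, at 14.92 to 15.03; Tnp1 (7.01-fold, adjusted p = 0.0297, 4 of 12 fits with 1 array left out) and Tnp2 (3.54-fold, 0.0259, 5 of 12), which encode transition proteins of spermatid chromatin, passed. Of 8 Sertoli, 5 Leydig, 5 myoid and 5 endothelial markers 0 passed, and of 5 macrophage and 4 epididymal markers 1 each. The VII group was uneven in macrophage markers, whose sum was 10.58 and 11.92 in its 2 samples and 10.55 to 10.82 elsewhere. Its Sertoli sums were 12.77 and 13.24, beside 12.73 to 12.90 elsewhere. Leydig sums were 13.82 and 14.26 in VII and 12.97 and 13.70 in IX-XI, beside 13.45 to 13.89 in the other groups, so both of these groups were uneven in Leydig markers.

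**Figure D2:**
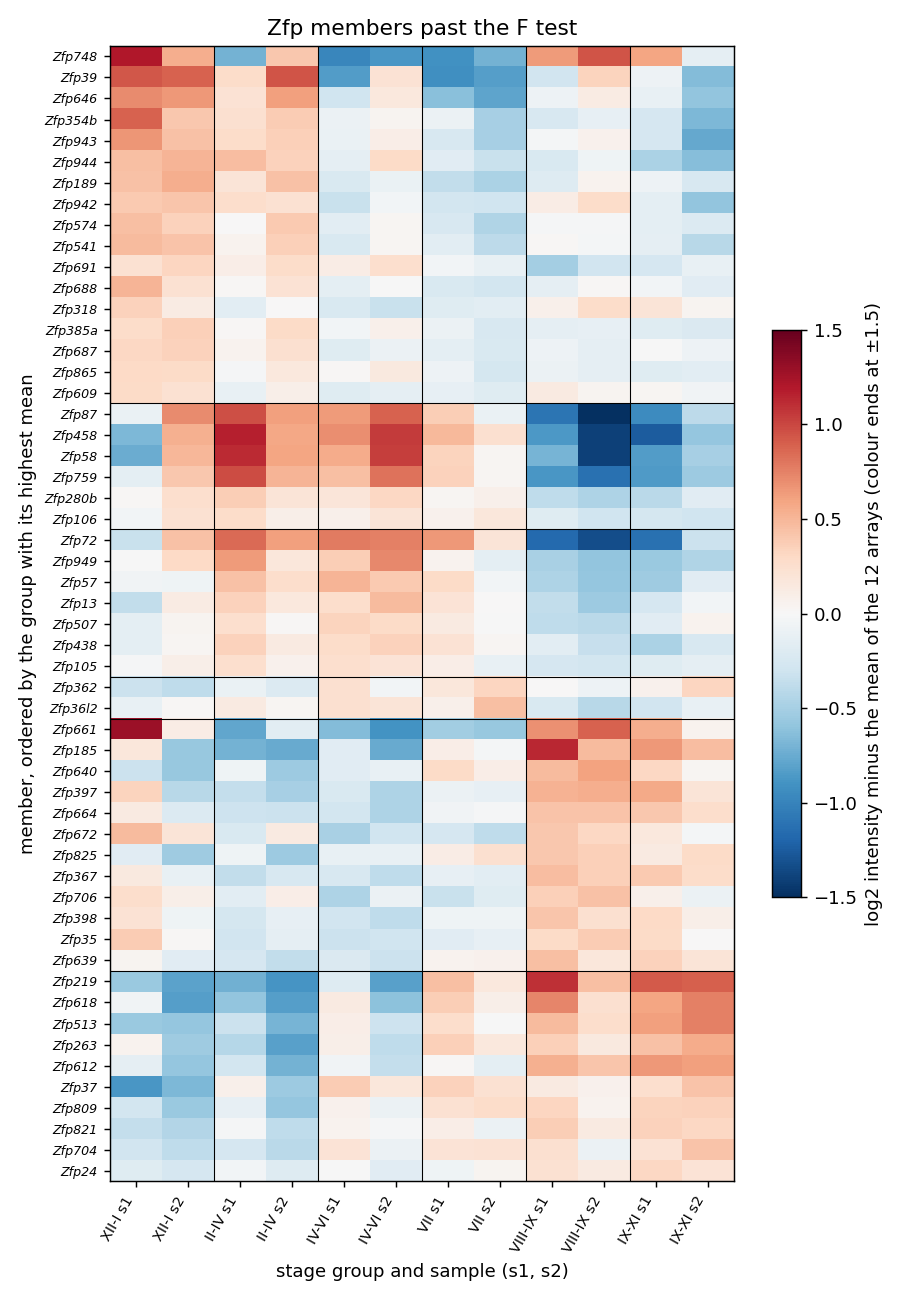
Rows are the 54 members past the F test, ordered by the group with their highest mean, and columns are the 12 arrays in cycle order. Colour gives each log2 intensity minus the member's mean over the 12 arrays, red above and blue below, with the ends of the scale at ±1.5, and the chromosome 13 genes Zfp87, Zfp458, Zfp58, Zfp759 and Zfp72 show the strongest blue in VIII-IX.

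The widest ranges among members past the F test were those of Zfp87, Zfp72 and Zfp458 (4.01-fold or more), zinc finger genes of mouse chromosome 13. Zfp759, Zfp458, Zfp58, Zfp87 and Zfp748 lie in this order in a stretch of 15 neighbouring genes, of which 14 were measured, 13 of them Zfp genes. Zfp72 lies elsewhere on the same chromosome. Promoter sequences, from 250 bases before to 50 bases after the transcription start, were taken from RefSeq on GRCm38.p6, at chr13:67127978-67128277 (plus strand) for Zfp759, chr13:67268945-67269244 (minus) for Zfp458, chr13:67500473-67500772 (minus) for Zfp58, chr13:67553103-67553402 (minus) for Zfp748 and chr13:74390780-74391079 (minus) for Zfp72. They are shown because all 5 hold a run of 17 letters, TTGTGGGAANTGTAGTC, set in capitals, the longest that they share with 1 variable letter (N). The choice of these 5 left out Zfp87 and took in Zfp748, whose course over the groups was opposite, so the run does not mark a shared course.
Zfp759: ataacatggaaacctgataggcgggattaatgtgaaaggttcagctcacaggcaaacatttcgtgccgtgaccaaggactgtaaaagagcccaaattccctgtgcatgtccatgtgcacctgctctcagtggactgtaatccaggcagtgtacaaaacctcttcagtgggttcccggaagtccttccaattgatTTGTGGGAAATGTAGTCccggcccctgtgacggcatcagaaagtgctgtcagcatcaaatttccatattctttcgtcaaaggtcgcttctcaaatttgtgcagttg
Zfp458: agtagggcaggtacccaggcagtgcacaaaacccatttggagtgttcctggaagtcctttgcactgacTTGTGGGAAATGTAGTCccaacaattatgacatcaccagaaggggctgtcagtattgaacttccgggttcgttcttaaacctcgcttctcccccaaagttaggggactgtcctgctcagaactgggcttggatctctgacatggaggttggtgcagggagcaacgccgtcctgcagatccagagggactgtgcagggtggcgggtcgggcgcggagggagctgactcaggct
Zfp58: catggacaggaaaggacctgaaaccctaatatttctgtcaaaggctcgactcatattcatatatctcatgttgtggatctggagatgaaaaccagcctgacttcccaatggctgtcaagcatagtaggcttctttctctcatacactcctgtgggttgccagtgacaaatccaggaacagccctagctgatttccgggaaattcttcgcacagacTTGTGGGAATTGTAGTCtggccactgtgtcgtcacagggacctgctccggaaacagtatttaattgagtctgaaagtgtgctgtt
Zfp748: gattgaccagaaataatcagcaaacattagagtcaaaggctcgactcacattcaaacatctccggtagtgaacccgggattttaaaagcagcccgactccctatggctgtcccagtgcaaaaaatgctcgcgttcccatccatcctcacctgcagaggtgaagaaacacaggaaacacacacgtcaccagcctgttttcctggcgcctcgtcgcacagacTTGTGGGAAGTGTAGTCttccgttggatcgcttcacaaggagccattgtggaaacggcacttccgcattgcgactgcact
Zfp72: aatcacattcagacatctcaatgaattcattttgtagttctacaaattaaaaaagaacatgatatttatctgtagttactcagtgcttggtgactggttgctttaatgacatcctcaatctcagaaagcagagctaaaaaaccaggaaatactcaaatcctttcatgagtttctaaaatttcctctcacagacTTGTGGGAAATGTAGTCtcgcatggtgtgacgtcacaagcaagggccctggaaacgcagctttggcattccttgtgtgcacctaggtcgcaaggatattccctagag
Counted from the start, the run began at -56 in Zfp759, -182 in Zfp458, -35 in Zfp58, -30 in Zfp748 and -57 in Zfp72. Searched on both strands, it was found in 24 of 32851 promoters of this length (0.0731%) and in 15 of 406 Zfp promoters (3.69%); of the 90 members with a promoter entry the 5 that defined it were the ones that held it. Its complementary strand resembles the site known to bind ZNF143 in human, and the match is a description of letters. The longest stretch that any pair of these promoters shared was 20 bases (Zfp458 and Zfp72).

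Zfp87, Zfp72, Zfp458, Zfp58 and Zfp759 had high levels in II-IV and IV-VI and low ones in VIII-IX. The log2 intensity of Zfp87 was 9.14 and 9.96 in XII-I, 10.21 and 9.87 in II-IV, 9.88 and 10.13 in IV-VI, 9.62 and 9.14 in VII, 8.15 and 7.71 in VIII-IX, and 8.30 and 8.86 in IX-XI. Both VIII-IX samples lay below all others, and the mean was 4.31-fold higher in II-IV than in VIII-IX (adjusted p = 0.0141). Zfp72 read 9.67 and 10.44 in XII-I, 10.86 and 10.62 in II-IV, 10.78 and 10.76 in IV-VI, 10.65 and 10.19 in VII, 8.84 and 8.68 in VIII-IX, and 8.89 and 9.68 in IX-XI. Again both VIII-IX samples lay lowest, IX-XI sample 1 was close to them, and the mean was 4.02-fold higher in IV-VI than in VIII-IX (adjusted p = 0.0141). Values of Zfp759 were 8.94 and 9.48 in XII-I, 10.06 and 9.60 in II-IV, 9.54 and 9.89 in IV-VI, 9.43 and 9.11 in VII, 8.22 and 7.96 in VIII-IX, and 8.24 and 8.54 in IX-XI. Its VIII-IX samples were the lowest, with IX-XI sample 1 next to them, and the range was 3.34-fold with the highest mean in II-IV (adjusted p = 0.0119). These 3 calls held in all 12 fits that left out 1 array.

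Zfp458 gave 8.63 and 9.84 in XII-I, 10.47 and 9.88 in II-IV, 9.995 and 10.35 in IV-VI, 9.79 and 9.55 in VII, 8.44 and 7.91 in VIII-IX, and 8.05 and 8.72 in IX-XI. VIII-IX and IX-XI overlapped, XII-I sample 1 lay within the IX-XI range, and the mean was 4.01-fold higher in II-IV than in VIII-IX (adjusted p = 0.0235). This call was past the threshold in 8 of 12 fits with 1 array left out and lost without IV-VI sample 2, VIII-IX sample 1 or 2 or IX-XI sample 1, with adjusted p from 0.00934 to 0.0635. Zfp58 had 8.49 and 9.72 in XII-I, 10.35 and 9.82 in II-IV, 9.78 and 10.27 in IV-VI, 9.57 and 9.26 in VII, 8.53 and 7.83 in VIII-IX, and 8.39 and 8.73 in IX-XI. Its VIII-IX and IX-XI samples overlapped, with XII-I sample 1 among them, and the mean was 3.74-fold higher in II-IV than in VIII-IX (adjusted p = 0.0333). The call was past the threshold in 3 of 12 fits with 1 array left out, those without XII-I sample 1 or 2 or II-IV sample 2, with adjusted p from 0.0123 to 0.0843. In all 5 genes XII-I sample 1 was lower than XII-I sample 2. Over the 12 arrays the 5 genes correlated pairwise at 0.944 to 0.986, as a description, since the arrays share groups and processing. With VIII-IX sample 2 and IX-XI sample 2 left out, their adjusted p-values were 0.0966 (Zfp759), 0.0976 (Zfp87), 0.0940 (Zfp72), 0.114 (Zfp458) and 0.163 (Zfp58). Related copies may share probe sequence, so part of the likeness can lie in the probe sets, which was not tested.

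Zfp748, the neighbour of Zfp87, took the opposite course. Its log2 intensity was 10.36 and 9.70 in XII-I, 8.45 and 9.56 in II-IV, 8.18 and 8.28 in IV-VI, 8.25 and 8.45 in VII, 9.79 and 10.10 in VIII-IX, and 9.75 and 9.03 in IX-XI. The samples of IV-VI and VII and II-IV sample 1 were low, and XII-I and VIII-IX were high and overlapped. The mean was 3.47-fold higher in XII-I than in IV-VI (adjusted p = 0.0267), and the correlation with the 5 others over 12 arrays lay between -0.73 and -0.60. It was past the threshold in 6 of 12 fits with 1 array left out and lost without IV-VI sample 1 or 2, VII sample 1 or 2 or VIII-IX sample 1 or 2, with adjusted p from 0.0118 to 0.0689. Rsl1, a KRAB zinc finger gene of the same stretch known in mouse liver for repressing sex-limited genes, is no Zfp gene by symbol; it was highest in II-IV, 2.03-fold over its lowest group (adjusted p = 0.0332). Zfp953 was the sole gene among the other 8 measured in the stretch to pass the test (1.49-fold, adjusted p = 0.0420, highest in XII-I). Those 8 had levels of 5.78 to 8.82, below the members' level.

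**Figure D3:**
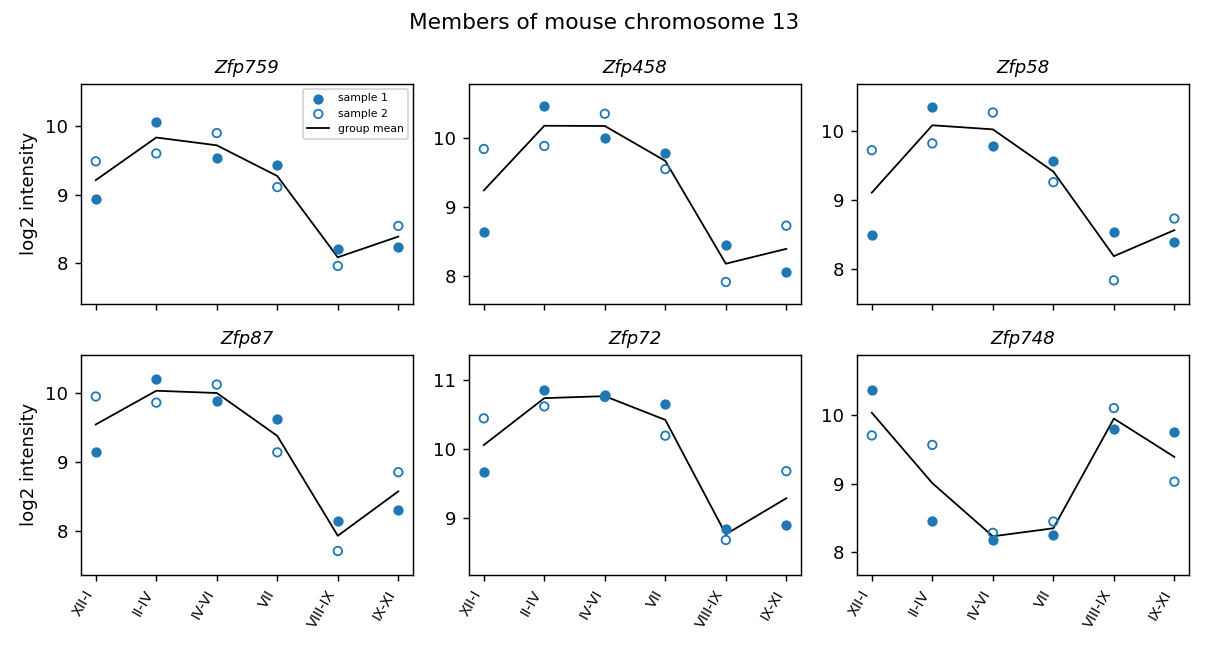
Log2 intensity by stage group for 6 members of chromosome 13, with filled circles for sample 1, open circles for sample 2 and a line through the group means. Zfp759, Zfp458, Zfp58, Zfp87 and Zfp72 are lowest in VIII-IX, and Zfp748 is lowest in IV-VI.

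A trio of neighbours on chromosome 17, Zfp942, Zfp943 and Zfp944, was highest in XII-I and lowest in IX-XI. Zfp942 and Zfp943 are next to each other on opposite strands and their promoter windows overlap by 194 bases, and the windows of Zfp942 (chr17:21962415-21962714, minus strand, GRCm38.p6) and Zfp944 (chr17:22361351-22361650, minus strand) share an unbroken run of 207 bases. These 2 promoters from RefSeq are printed to show that likeness, with the palindrome GTCACGTGAC in capitals.
Zfp942: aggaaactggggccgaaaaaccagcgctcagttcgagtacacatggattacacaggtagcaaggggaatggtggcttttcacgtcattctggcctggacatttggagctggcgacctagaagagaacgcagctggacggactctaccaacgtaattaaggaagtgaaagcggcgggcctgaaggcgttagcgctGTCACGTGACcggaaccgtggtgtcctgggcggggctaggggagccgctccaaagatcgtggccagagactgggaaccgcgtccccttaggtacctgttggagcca
Zfp944: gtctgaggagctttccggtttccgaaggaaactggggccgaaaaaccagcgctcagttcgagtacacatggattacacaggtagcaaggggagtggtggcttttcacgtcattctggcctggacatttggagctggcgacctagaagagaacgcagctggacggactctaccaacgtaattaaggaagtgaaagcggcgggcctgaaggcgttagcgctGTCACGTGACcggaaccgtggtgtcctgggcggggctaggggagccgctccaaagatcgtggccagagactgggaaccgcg
All 3 promoters hold the palindrome, which contains the E-box core CACGTG. The palindrome was found on either strand in 107 of 32851 promoters (0.326%), in 4 of 122 promoters of members, and outside the trio in that of Zfp207. In Zfp942 and Zfp943 it is the same genomic site, inside their overlap, and in Zfp944 it lies within the run of 207 bases. These 3 are thus not separate occurrences in the counts. Zfp944 had log2 intensities of 9.83 and 9.89 in XII-I, 9.84 and 9.72 in II-IV, 9.25 and 9.67 in IV-VI, 9.21 and 9.05 in VII, 9.16 and 9.31 in VIII-IX, and 8.91 and 8.74 in IX-XI. The IX-XI samples were the lowest of the 12, and XII-I overlapped with II-IV. Its mean was 2.05-fold higher in XII-I than in IX-XI (adjusted p = 0.0133, past the threshold in all 12 fits). Zfp943 read 9.95 and 9.73 in XII-I, above the range of 8.52 to 9.64 of the other samples, and its mean was 2.08-fold higher in XII-I than in IX-XI (adjusted p = 0.0202, 12 of 12 fits). Zfp942 was likewise highest in both XII-I samples, at 9.83 and 9.85 against 8.85 to 9.72, and its mean was 1.71-fold higher in XII-I than in IX-XI (adjusted p = 0.0258, 8 of 12 fits). Pairwise correlations over the 12 arrays were 0.819 to 0.923, and with this promoter likeness the probe sets may read more than 1 copy, which was not tested.

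Of 17 measured genes with roles described in germ line or embryo, 11 were members, and 7 of these (63.6%) passed the F test, beside 45.4% of all members and 31.6% of genes at 9 or more. Zfp541, needed in mouse to leave meiotic prophase together with KCTD19 and the deacetylases HDAC1 and HDAC2, read 11.05 and 11.01 in XII-I and 10.16 to 10.93 in the other samples. Both XII-I samples were above all others, and the mean was 1.65-fold higher in XII-I than in IX-XI (adjusted p = 0.0333), with the call past the threshold in 3 of 12 fits with 1 array left out, those without II-IV sample 1 or 2 or VII sample 1, with adjusted p from 0.0235 to 0.0969. Of the 5 measured partners, Hdac2 (1.59-fold, adjusted p = 0.0218, 8 of 12 fits) and Hdac1 (1.32-fold, 0.0427, 1 of 12 fits) passed, both highest in II-IV and lowest in VIII-IX, whereas Kctd19 spanned 1.12-fold (adjusted p = 0.659). Zfp37, first described from mouse testis, gave 10.73 and 10.92 in XII-I, 11.68 and 11.05 in II-IV, 11.98 and 11.78 in IV-VI, 11.95 and 11.84 in VII, 11.74 and 11.66 in VIII-IX, and 11.85 and 12.03 in IX-XI. The XII-I samples were the lowest, and the mean was 2.16-fold higher in IX-XI than in XII-I (adjusted p = 0.0198); without XII-I sample 1 the adjusted p was 0.0647, the sole loss among 12 such fits.

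Zfp39 read 11.30 and 11.26 in XII-I, 10.65 and 11.31 in II-IV, 9.53 and 10.59 in IV-VI, 9.45 and 9.55 in VII, 10.09 and 10.71 in VIII-IX, and 10.29 and 9.73 in IX-XI. Both VII samples and IV-VI sample 1 were low, XII-I and II-IV overlapped at the top, and the samples of IV-VI lay far apart. Its mean was 3.44-fold higher in XII-I than it was in VII (adjusted p = 0.0404), past the threshold in 3 of 12 fits with 1 array left out, those without II-IV sample 1 or IV-VI sample 1 or 2, with adjusted p from 0.0322 to 0.0994. Zfp35, a gene of spermatocytes in mouse, was 1.56-fold higher in VIII-IX than in IV-VI (adjusted p = 0.0353, 5 of 12 fits). Zfp105 was 1.41-fold higher in IV-VI than in VIII-IX (adjusted p = 0.0400, 5 of 12 fits). Zfp318, a testicular zinc finger protein known as a cofactor of the androgen receptor, was 1.43-fold higher in XII-I than in IV-VI (adjusted p = 0.0432, 3 of 12 fits). The other members of the list did not pass, namely Zfp474, a testis gene (1.41-fold, adjusted p = 0.0751), Zfp462 (1.38-fold, 0.203), Zfp281, a pluripotency regulator (1.25-fold, 0.331), and Zfp148 (1.17-fold, 0.376).

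Among 8 measured genes of retroelement and imprint repression, 4 were members and 2 of these passed (50%, beside 45.4% of all members). Zfp57, which with TRIM28 keeps the methylation of imprinted regions, had 10.85 and 10.84 in XII-I, 11.33 and 11.17 in II-IV, 11.41 and 11.30 in IV-VI, 11.19 and 10.86 in VII, 10.44 and 10.32 in VIII-IX, and 10.36 and 10.73 in IX-XI. Levels were high from II-IV to VII and low in VIII-IX and IX-XI, whose samples overlapped; XII-I lay between them at 10.85 and 10.84. The mean was 1.97-fold higher in IV-VI than in VIII-IX (adjusted p = 0.0151, past the threshold in all 12 fits, 0.0940 without sample 2 of VIII-IX and of IX-XI). Zfp809, known for silencing murine leukaemia proviruses, read 10.09 and 10.11 in IX-XI and 9.48 and 9.20 in XII-I, and was 1.69-fold higher in IX-XI than in XII-I (adjusted p = 0.0319, 3 of 12 fits). Zfp445, which also protects imprints, was 1.45-fold higher in XII-I than in IV-VI and did not pass (adjusted p = 0.0509), nor did Zfp689 (1.25-fold, adjusted p = 0.267).

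Several members are known to act with chromatin enzymes or transcription cofactors. Zfp219, a cofactor of SOX9 in cartilage, gave 9.04 and 8.80 in XII-I, 8.88 and 8.71 in II-IV, 9.41 and 8.78 in IV-VI, 10.04 and 9.75 in VII, 10.69 and 10.05 in VIII-IX, and 10.51 and 10.49 in IX-XI. The 4 samples of VIII-IX and IX-XI lay above all others, the 6 samples from XII-I to IV-VI lay lowest, and VII lay between. The mean was 3.26-fold higher in IX-XI than in II-IV (adjusted p = 0.0113, 12 of 12 fits, 0.0850 without sample 2 of VIII-IX and of IX-XI). Zfp618, known in human as a partner of UHRF2, read 10.28 and 10.44 in IX-XI, its highest group, and 9.09 and 8.86 in II-IV, its lowest; its mean was 2.61-fold higher in IX-XI (adjusted p = 0.0418, 3 of 12 fits, 0.0263 to 0.108). Zfp687, which in human binds ZMYND8, was at 11.38 and 11.43 in XII-I, above 10.85 to 11.32 elsewhere, and was 1.43-fold higher in XII-I than it was in VII (adjusted p = 0.0253, 3 of 12 fits). Zfp592, its relative in the same human complex, was among the 3 members with the narrowest ranges (1.08-fold, adjusted p = 0.918), with Zfp385b (1.08-fold, 0.836) and Zfp414 (1.09-fold, 0.866). Zfp609, a partner of the cohesin loader in mouse neural progenitors, was 1.34-fold higher in XII-I than in IV-VI (adjusted p = 0.0499, 2 of 12 fits), and Zfp644, which recruits the methyltransferases G9a and GLP, spanned 1.17-fold (adjusted p = 0.403).

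Of 12 measured genes with roles at RNA, ribosome or spindle, 8 were members and 3 of these passed (37.5%, beside 45.4% of all members and 31.6% of genes at 9 or more). Zfp36l2, which promotes the decay of mRNAs with AU-rich elements, was 0.58 log2 higher in VII than in VIII-IX (adjusted p = 0.0471), and the call held in 1 of 12 fits. Zfp106, an RNA-binding protein, was 1.38-fold higher in II-IV than in IX-XI (adjusted p = 0.0415, 3 of 12 fits), and Zfp385a, an RNA-binding partner of p53, was 1.43-fold higher in XII-I than in IX-XI (adjusted p = 0.0367, 3 of 12 fits). Zfp346, which binds double-stranded RNA, had 10.95 and 9.80 in XII-I, 10.02 and 9.61 in II-IV, 10.28 and 9.90 in IV-VI, 10.44 and 10.47 in VII, 11.19 and 11.28 in VIII-IX, and 11.19 and 10.81 in IX-XI. Both VIII-IX samples were above all others, but the samples of XII-I differed widely, and the 2.68-fold range did not pass (adjusted p = 0.0557). Zfp330 (1.85-fold, adjusted p = 0.259), Zfp638, which silences unintegrated retroviral DNA (1.44-fold, 0.131), Zfp598, the sensor of collided ribosomes (1.32-fold, 0.114), and Zfp207, a BUB3-binding protein of the spindle (1.10-fold, 0.536), did not pass either. Zfp185 is a LIM domain protein of the actin cytoskeleton and the sole X-linked member of 3 to pass; it was 2.89-fold higher in VIII-IX than in II-IV (adjusted p = 0.0279, 8 of 12 fits), at 10.63 and 9.97 in VIII-IX and 8.80 and 8.74 in II-IV.

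The other members among the 25 with the widest ranges past the test are given here by the group in which they were highest. High in XII-I and low in VII was Zfp646, with 11.73 and 11.69 in XII-I, 11.25 and 11.65 in II-IV, 10.73 and 11.19 in IV-VI, 10.41 and 10.24 in VII, 10.96 and 11.15 in VIII-IX, and 10.92 and 10.44 in IX-XI. Both XII-I samples were above, and both VII samples below, all others; the mean was 2.61-fold higher in XII-I than it was in VII (adjusted p = 0.0180, 12 of 12 fits). Zfp354b was 2.15-fold higher in XII-I than in IX-XI (F test adjusted p = 0.0277, past it in 6 of 12 fits), with 9.88 and 9.41 in XII-I and 8.33 to 9.39 elsewhere. Zfp189 was 1.89-fold higher in XII-I than it was in VII (adjusted p = 0.0141, 12 of 12 fits). Low in XII-I and high in IX-XI was Zfp513, with 9.60 and 9.56 in XII-I, 9.82 and 9.45 in II-IV, 10.25 and 9.84 in IV-VI, 10.42 and 10.14 in VII, 10.63 and 10.41 in VIII-IX, and 10.76 and 10.91 in IX-XI. Its IX-XI samples lay above all others, its XII-I samples and II-IV sample 2 were lowest, and the mean was 2.39-fold higher in IX-XI than in XII-I (adjusted p = 0.0132, 12 of 12 fits). Zfp612 (2.17-fold higher in IX-XI than in II-IV, adjusted p = 0.0178, lost at 0.0520 without IX-XI sample 1) and Zfp263 (2.17-fold higher in IX-XI than in II-IV, adjusted p = 0.0403, 3 of 12 fits) were likewise highest in both IX-XI samples.

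Zfp661 was 2.95-fold higher in VIII-IX than in IV-VI (adjusted p = 0.0329, 4 of 12 fits), although XII-I sample 1 at 10.62 exceeded both VIII-IX samples at 10.02 and 10.22 and XII-I sample 2 was at 9.45. Zfp640 (1.98-fold higher in VIII-IX than in XII-I, adjusted p = 0.0243, 8 of 12 fits) and Zfp397 (1.95-fold higher in VIII-IX than in II-IV, adjusted p = 0.0453, 2 of 12 fits) were also highest in VIII-IX. Zfp949 was 2.12-fold higher in IV-VI than in VIII-IX (adjusted p = 0.0170, 12 of 12 fits), with VIII-IX and IX-XI samples between 8.43 and 8.56, below all others. Zfp13 was 1.76-fold higher in IV-VI than in VIII-IX (adjusted p = 0.0462, 2 of 12 fits). A wide range alone did not bring a call. Zfp389, also on chromosome 13, had the widest range of all members, 4.36-fold, with 10.19 and 8.19 in XII-I, 9.38 and 8.03 in II-IV, 9.81 and 9.26 in IV-VI, 10.22 and 10.19 in VII, 10.77 and 10.89 in VIII-IX, and 10.76 and 10.55 in IX-XI. Its 2 samples of XII-I, and those of II-IV, lay far apart, and it did not pass (adjusted p = 0.0955). Zfp558 (2.02-fold, adjusted p = 0.1501) was the third member with a range over 2-fold that did not pass.

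**Figure D4:**
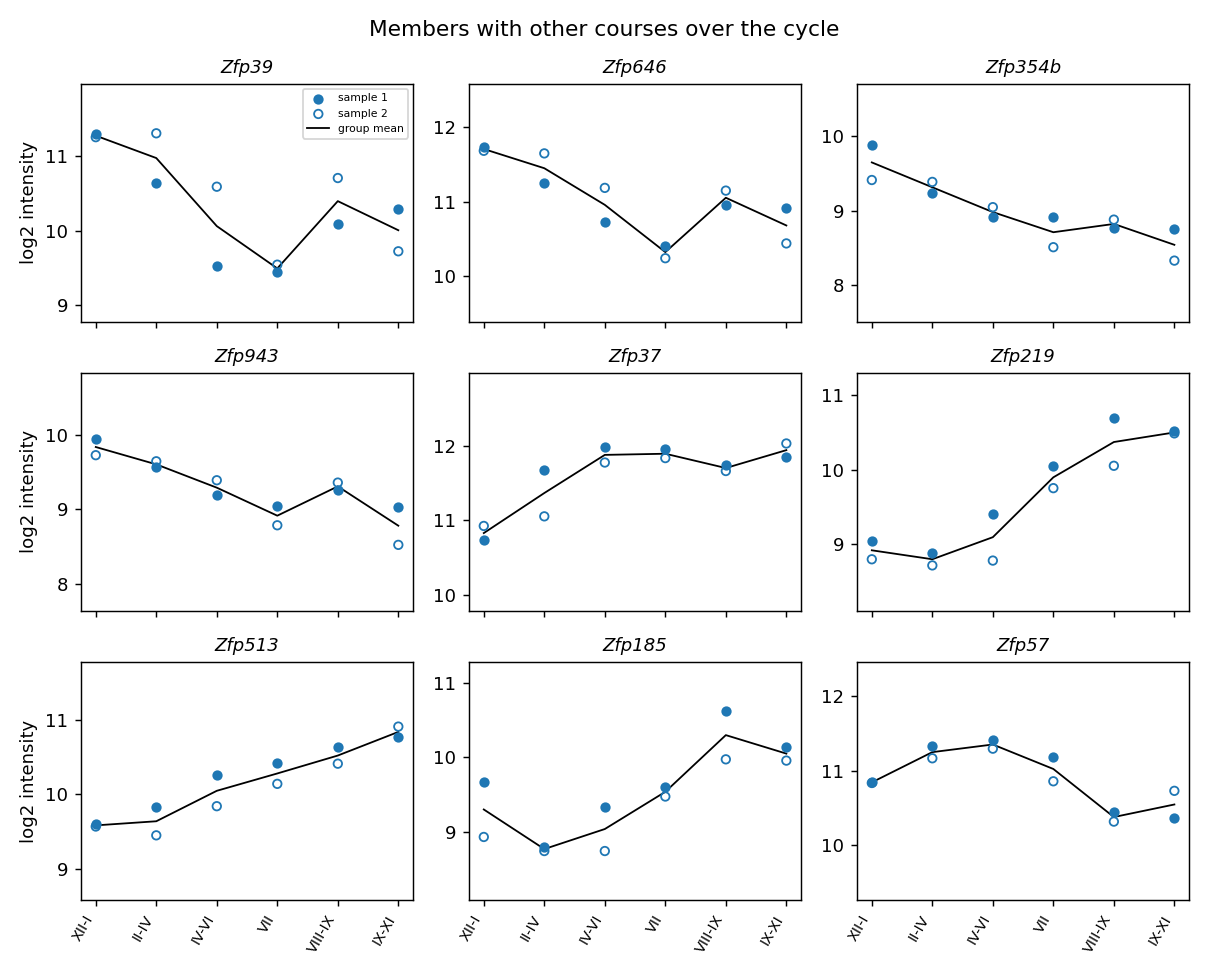
Log2 intensity by stage group for 9 members named in the text, with filled circles for sample 1, open circles for sample 2 and a line through the group means. Zfp646 peaks in XII-I and is lowest in VII, Zfp219 and Zfp513 are highest in IX-XI, and Zfp57 is highest in IV-VI.

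Each group was then set against the mean of the other 5. In XII-I, 17 members were higher and 9 lower, 14.3% and 7.56% of the 119. The same contrast called 7.51% of all genes higher and 3.33% lower, and 13.3% and 5.41% of genes at 9 or more. The share of members that rose was thus close to that of genes at 9 or more. Those genes were not matched to the members in level, with 4924 of 8101 at 10 or more against 45 of the 119 members. The 3 with the largest differences (log2 ± SE, 2 samples against 10) among those higher were Zfp39 at 1.09 ± 0.28 (adjusted p = 0.0405), Zfp748 at 1.04 ± 0.28 (0.0464) and Zfp646 at 0.82 ± 0.16 (0.0229). Among those lower the largest differences were those of Zfp37 at -0.93 ± 0.14 (adjusted p = 0.0211), Zfp219 at -0.81 ± 0.19 (0.0305) and Zfp513 at -0.68 ± 0.13 (0.0233). Without XII-I sample 1 the contrast called 0 members, and without XII-I sample 2 it called 6. The count of 26 became 44 without II-IV sample 2 and 11 when IV-VI sample 1 was left out, 15 without VIII-IX sample 1 and 10 without IX-XI sample 2.

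In VIII-IX, 12 members were higher and 12 lower (10.1% each), beside 3.53% and 4.31% of all genes and 4.46% and 6.85% of genes at 9 or more. Zfp185 (0.96 ± 0.22, adjusted p = 0.0341), Zfp219 (0.93 ± 0.19, 0.0236) and Zfp640 (0.65 ± 0.13, 0.0236) had the largest differences among the 12 called higher, and Zfp389, not called, was at 1.17 ± 0.45 (adjusted p = 0.143). Zfp87 (-1.58 ± 0.23, adjusted p = 0.0134), Zfp72 (-1.49 ± 0.23, 0.0142) and Zfp458 (-1.36 ± 0.30, 0.0325) had the largest among the 12 called lower. Over all 119 members the median difference in VIII-IX was 0.06, beside -0.02 over all genes and 0.01 over genes at 9 or more. In the same contrast of the other groups the members' median was 0.02 in XII-I, -0.09 in II-IV, -0.07 in IV-VI, -0.03 in VII and 0.04 in IX-XI. A shift of this size was thus not particular to VIII-IX. The count of 24 was 0 without VIII-IX sample 1, 1 when its sample 2 was left out, between 10 and 15 without IV-VI sample 1 or 2, VII sample 1 or 2 or IX-XI sample 2, and 38 without XII-I sample 1. In IX-XI, 5 members were higher and 5 lower (4.2% each), beside 1.9% and 1.79% of all genes and 1.84% and 3.1% of genes at 9 or more. Zfp219 (1.09 ± 0.19, adjusted p = 0.0216), Zfp513 (0.82 ± 0.13, 0.0206) and Zfp612 (0.76 ± 0.14, 0.0264) led those called higher, and Zfp759 (-0.83 ± 0.18, 0.0405), Zfp944 (-0.67 ± 0.11, 0.0202) and Zfp943 (-0.61 ± 0.13, 0.0399) those called lower. This count of 10 was 0 without either IX-XI sample, 3 to 5 without IV-VI sample 2 or any sample of VII or VIII-IX, and 20 without XII-I sample 1.

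For II-IV, IV-VI and VII the contrast with the other groups called 0 members by limma and 0% of all genes. At an unadjusted p under 0.05 there were 50, 42 and 38 members in II-IV, IV-VI and VII, and the lowest adjusted p was 0.0711, 0.0776 and 0.124. These 0 counts depended on single arrays, with 21 members called in II-IV and 23 in IV-VI once XII-I sample 2 was left out, 14 in IV-VI and 6 in VII without II-IV sample 1, and 1 each in II-IV without XII-I sample 1 and in VII without VII sample 1.

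Between neighbouring groups, 2 of the 6 steps called members. At the step into VIII-IX, when sperm are released, 4 members were higher in VIII-IX than in VII and 5 lower (3.36% and 4.2%), beside 2.27% and 1.66% of all genes and 2.85% and 2.69% of genes at 9 or more. Zfp748 was higher by 1.59 ± 0.36 (log2 ± SE, adjusted p = 0.0493), Zfp672 by 0.67 ± 0.14 (0.0469) and Zfp706 by 0.65 ± 0.15 (0.0482), and the fourth was Zfp367. The rises of Zfp672 and Zfp706 rest on their brightest probe sets. The second set of Zfp706 (mean 10.46) was highest in VII and correlated with the first at -0.18. That of Zfp672, dim at a mean of 6.33, did so at -0.24. Among the 5 called lower, the largest differences were those of Zfp72 (-1.66 ± 0.30, adjusted p = 0.0429), Zfp87 (-1.45 ± 0.30, 0.0461) and Zfp759 (-1.18 ± 0.23, 0.0446), beside Zfp57 and Zfp36l2; Zfp458 (-1.49 ± 0.39, 0.0611) and Zfp58 (-1.23 ± 0.39, 0.0914) were not called. All 9 adjusted p-values lay between 0.0429 and 0.0493, and the count was 0 without either sample of IV-VI, VIII-IX or IX-XI or without VII sample 2, 1 without VII sample 1, and 22 without either XII-I sample.

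At the step into XII-I, which holds the meiotic divisions, 15 members were higher in XII-I than in IX-XI and 12 lower (12.6% and 10.1%), beside 7.33% and 4.63% of all genes and 12.7% and 5.94% of genes at 9 or more. Zfp354b (1.11 ± 0.20, adjusted p = 0.0123), Zfp943 (1.06 ± 0.17, 0.00950) and Zfp944 (1.04 ± 0.14, 0.00796) had the largest differences among the 15 called higher, and Zfp39, not called, was at 1.27 ± 0.36 (adjusted p = 0.0505). Zfp219 (-1.58 ± 0.24, adjusted p = 0.00866), Zfp513 (-1.26 ± 0.17, 0.00800) and Zfp37 (-1.11 ± 0.18, 0.0101) had the largest among the 12 called lower, with Zfp618 close behind (-1.11 ± 0.30, 0.0435), and Zfp389, not called, was at -1.47 ± 0.58 (adjusted p = 0.138). Each of Zfp354b, Zfp943, Zfp944, Zfp219, Zfp513 and Zfp37 stayed past the threshold in 11 of 12 fits with 1 array left out. The count of 27 was 8 without XII-I sample 2, 9 without IX-XI sample 1 and 0 when IX-XI sample 2 was dropped. For the step into II-IV, the step into IV-VI, the step into VII and the step into IX-XI limma called 0 members and 0% of all genes, with 21, 13, 11 and 8 members at an unadjusted p under 0.05. The contrasts share arrays, so their values are not independent of each other.

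**Figure D5:**
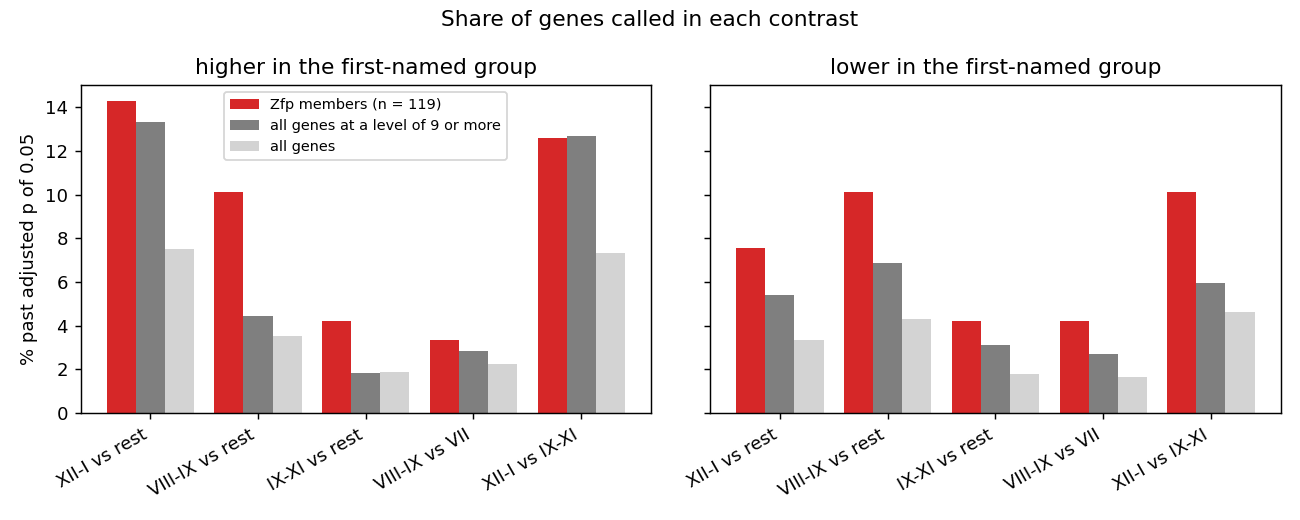
Bars give the share in percent of genes called higher (left panel) or lower (right panel) in the first-named group, for the 5 contrasts with any call, with red for the 119 members, dark grey for all genes at a level of 9 or more and light grey for all genes. In XII-I against the rest the red and dark grey bars for higher genes are close, at 14.3% and 13.3%, and in VIII-IX they are 10.1% and 4.46%.

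Genes of the TRIM28 corepressor and of heterochromatin, through which KRAB zinc finger proteins act, were read beside the members. Of 29 measured, 27 of them at a level of 9 or more, 10 passed the F test. This is 34.5% of the 29 and 37.0% of the 27, beside 31.6% of genes at 9 or more. The highest mean of these 10 was in XII-I for 5, in II-IV for 4 and in VIII-IX for 1. The median range over the list was 0.45 log2, beside 0.47 over genes at 9 or more and 0.34 over all genes. Smarcad1, a chromatin remodeller that binds TRIM28, had the lowest adjusted p and a 2.31-fold range, highest in II-IV at 9.998 ± 0.12 and lowest in IX-XI at 8.79 ± 0.13 (SD, n = 2, limma adjusted p = 0.00891, 12 of 12 fits). Trim33, a relative of TRIM28, spanned 2.06-fold (adjusted p = 0.0278, 5 of 12 fits), Uhrf1 1.77-fold (0.0283, 4 of 12) and Cbx3, which encodes a heterochromatin protein, 1.62-fold (0.0219, 11 of 12), each highest in XII-I. Setdb1 was highest in VIII-IX and spanned 1.39-fold (adjusted p = 0.0407, 2 of 12 fits). Trim28 itself did not pass (1.18-fold, adjusted p = 0.259). Among 12 other zinc finger genes of the germ line, Prdm9, which marks the sites of meiotic recombination, passed with its highest mean in VIII-IX (2.31-fold, adjusted p = 0.0150, 12 of 12 fits), and Zkscan1 with its highest in IV-VI (1.66-fold, 0.0191, 8 of 12), 16.7% of the list.

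By chromosome, members were most frequent on 7, with 18, of which 6 passed the F test (33.3%), on 13, with 13 and 9 passing (69.2%), on 17, with 11 and 7 passing (63.6%), and on 18, with 9 and 4 passing (44.4%), beside 45.4% of all members. On chromosome 13, Zfp759, Zfp458, Zfp58, Zfp87 and Zfp72 were under 9 in VIII-IX, and Zfp748 was under 9 in IV-VI. These genes met the level through their other groups, so the share on 13 is set in part by the rule. Of members with every group mean at 9 or above, 39.1% passed. On chromosome 18 Zfp397, Zfp35 and Zfp24, the last known for its role in myelination, are direct neighbours, and all 3 passed. Zfp397 and Zfp35 were highest in VIII-IX and Zfp24 in IX-XI (1.39-fold, adjusted p = 0.0372, 2 of 12 fits). Their pairwise correlations over the 12 arrays were 0.420 to 0.860. Other members at most 10 places apart on chromosome 18 did not pass, namely Zfp236 (F test adjusted p = 0.508), Zfp516 (0.138) and Zfp407 (0.0526). On chromosome 7 Zfp688 passed (0.0434) without its neighbours Zfp771, Zfp768 and Zfp689. Zfp51, near the chromosome 17 trio, did not pass (0.0573). Zfp640, near the chromosome 13 stretch, was highest in VIII-IX. The 3 X-linked members were Zfp185, which passed, and Zfp275 (1.49-fold, adjusted p = 0.193) and Zfp280c (1.40-fold, 0.184), which did not. Of the 5 brightest members, Zfp37 and Zfp706 passed. Zfp451, a SUMO ligase in human, spanned 1.40-fold (adjusted p = 0.122), Zfp654 1.23-fold (0.186) and Zfp110, which interacts with the neurotrophin receptor, 1.29-fold (0.405), and none of the 3 passed. Zfp706 was 1.596-fold higher in VIII-IX than in IV-VI (adjusted p = 0.0471, 3 of 12 fits), but its second probe set, at a mean of 10.46, was highest in VII and had a correlation of -0.18 with the first. Of the 9 members with several probe sets, those of Zfp672 (-0.24) and Zfp319 (-0.16) disagreed too, and in Zfp141, Zfp407, Zfp558, Zfp640, Zfp664 and Zfp825 the sets correlated at 0.864 to 0.993.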

How the data were processed

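RNA of whole testes was measured on 12 arrays, amplified from 100 ng (Ovation kit) with 3.75 ug of cDNA then labelled (Encore kit), per the labels' protocols. The authors deposited 1 intensity per probe set and array on a linear scale, made with RMA (background correction, quantile normalization and summary of probes) per the submitters' processing notes, with no version in the sources used here. RMA makes array distributions alike, so changes are relative to the other transcripts. Intensities were taken to log2. Of 28853 probe sets, 21797 had 1 gene symbol, and the brightest of a gene was kept, which left 19946 genes; 40 Zfp probe sets with several symbols were not used. A linear model of the 6 groups was fitted to the 12 arrays in limma 3.58.1 in R 4.3.3 (lmFit, eBayes, 6 residual degrees of freedom), with an F test, contrasts of every group against the average of the remaining 5, and 6 steps between neighbouring groups. Benjamini-Hochberg adjustment ran over all 19946 genes, with calls at 0.05. The fit was tested on simulated data. The number of arrays limits the precision.

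The members, gene lists and alternatives were chosen with earlier results of these data known. Named members are the 25 with the widest range past the F test, the 3 largest differences each way in each contrast and step, the members nearest the level of 9, the 5 brightest, the 3 narrowest and those in the lists; other names (Rsl1, Zfp953, Zfp389, Zfp558, genes on X or next to each other, and members with known roles) were chosen after their values were seen. Promoters and gene order come from RefSeq on GRCm38.p6. Protein features planned for the members (finger number, KRAB box) were not analysed here. Alternatives were a repeated quantile normalization, a filter on the dimmest 30% of genes, a replicate block, array weights, the mean of all probe sets of a gene, other levels for members, joined groups and left-out arrays.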

Additional observations from a re-analysis of the deposited data

How the results depend on the processing

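The count of 54 members past the F test, and that of 3973 for all genes past the F test, stayed within 1.5 times under repeated normalization, the dim filter, the replicate block (56 members), array weights (59), the mean of probe sets and joined late groups. Without sample 2 of VIII-IX and of IX-XI they were 0 and 19. With 1 array left out they ranged from 19 to 58 and from 1522 to 4269. A level of 10 for members left 20 past the F test, 11 in XII-I, 8 in VIII-IX, 3 in IX-XI, 4 at the step into VIII-IX and 10 at the step into XII-I, since it leaves 45 members.

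For the contrasts, leaving out 1 array gave 0 to 44 members in XII-I, 0 to 21 in II-IV, 0 to 23 in IV-VI, 0 to 6 in VII, 0 to 38 in VIII-IX, 0 to 20 in IX-XI, 0 to 22 at the step into VIII-IX and 0 to 35 at the step into XII-I. With sample 2 of both VIII-IX and IX-XI left out, the contrasts of XII-I, VIII-IX and IX-XI and both steps called 0 members. Array weights gave 4 members in XII-I, 33 in IV-VI, 5 in VIII-IX, 29 in IX-XI and 0 at the step into VIII-IX. Both arrays of a group received the same weight in every group, so this setting cannot single out a poor array within a group. It gave the largest weights to the arrays of IV-VI and IX-XI. Without the II-IV samples, an alternative chosen after seeing the data, the counts were 45 in XII-I, 25 in IV-VI, 12 in VIII-IX and 0 in IX-XI. The replicate block gave 10 members in II-IV and 2 at the step into VIII-IX, and moved no other count by over 1.5 times. Differences between sample 1 and sample 2 correlated between groups at -0.35 to 0.54, with 7 of 15 over 0.1. Such mixed values cannot tell whether the numbers pair the samples. The cause of these shifts in the counts was not tested. A step into II-IV, IV-VI, VII or IX-XI called 0 members in each alternative run. Of 2380 values of single members under an alternative, 1914 stayed on their side of the threshold, 372 lost the call and 94 gained it.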

Other observations

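Of the 228 Zfp genes below the level of 9, 32 passed the limma F test (14%), and some spanned more than most members. Zfp819, known in mouse for repressing retroelements in germ cells and embryonic stem cells, had means of 9.64 ± 0.10 in II-IV and 7.23 ± 0.07 in VIII-IX (SD, n = 2 each, log2), a 5.31-fold range with adjusted p = 0.0143 that held in all 12 fits with 1 array left out. Its 2 samples lay apart in XII-I (mean 9.00 ± 0.78) and in IV-VI (9.43 ± 0.71). Zfp708, which silences a family of retroelements in mouse, had means of 8.52 ± 0.18 in II-IV and 6.51 ± 0.08 in IX-XI, 4.03-fold apart (adjusted p = 0.0339, held in 4 of 12 fits). Zfp941 (3.75-fold, highest in IV-VI, adjusted p = 0.0249), Zfp85os (3.28-fold, II-IV, 0.0151) and Zfp719 (2.73-fold, II-IV, 0.0168) followed. Zfp36l1, a relative of Zfp36l2, was highest in VII and lowest in VIII-IX, as Zfp36l2 was, with a 1.89-fold range (adjusted p = 0.0161, 12 of 12 fits).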
